A study of Mus musculus with 18 samples.

Results

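Small nucleolar RNA (snoRNA) genes were followed through the differentiation of mouse embryonic stem cells with and without a functional Pax7 gene. They were taken as every gene symbol that begins with Snora or Snord on a probe set carrying a single symbol. Host transcripts named Snhg were left out, and where a gene had several probe sets, the brightest on average was used. This gave 73 genes out of the 22180 measured, 26 of the H/ACA class (Snora) and 47 of the C/D class (Snord). A further 43 probe sets named a Snora or Snord gene together with other symbols and were not used. The annotation lists 133 Snora and Snord symbols in all.

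The study measured total RNA on 18 Affymetrix arrays, 3 for each of 6 groups labelled as biological replicates. Pax7+/+ and Pax7-/- cells, both F1 (C57Bl6N x 129Sv), were collected at day 0 as undifferentiated stem cells in medium with LIF, the cytokine that holds them in that state. They were also collected at day 7 as embryoid bodies and at day 21 as embryoid body outgrowths, in medium without LIF and with RA and ITS. The labels do not say how many cell lines stand behind each genotype, so a difference between genotypes and a difference between the lines that carry them cannot be told apart.

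SnoRNAs guide the chemical modification of other RNAs, mostly ribosomal RNA in the nucleolus. C/D snoRNAs pair with their target and direct 2′-O-methylation by fibrillarin, and H/ACA snoRNAs direct pseudouridylation by dyskerin (Dkc1). A few, such as Snord13 (U13), Snord118 (U8) and the Snora73 pair (U17), take part in the processing of the ribosomal RNA precursor. Most mammalian snoRNAs are cut out of the introns of host genes, so a probe inside a snoRNA can also read the unspliced host transcript, and the signals of the snoRNA and of its host's precursor cannot be told apart on these arrays.

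By the standard deviation of their log2 values there were 2 kinds of array, 10 narrow arrays with values of 1.37 to 1.45 and 8 wide arrays with 1.79 to 1.85. Each group held arrays of both sets, and the set was a block in every fit. This mattered more for snoRNA genes than for most: the wide arrays read higher by a median of 1.49 (log2) for H/ACA and 1.61 for C/D genes, against -0.10 for all genes and 0.92 for genes at or above the median level. Markers of undifferentiated stem cells averaged 7.68 to 7.87 (log2, narrow arrays) at day 0 and 5.58 to 5.92 at day 21. At day 7 they averaged 6.66 in Pax7+/+ and 6.23 to 6.58 in Pax7-/- cells (narrow). On wide arrays the Pax7+/+ list averaged 8.54 at day 0 and 7.87 to 7.93 at day 7, and the Pax7-/- list 9.03 and 7.52. From day 0 to day 7, 2 of the 6 markers were called lower in Pax7+/+ cells, Klf4 and Tdgf1, and 5 in Pax7-/- cells. Pax7 itself did not pass the test between genotypes at any day (differences 0.03, -0.01 and 0.25, log2), and whether its probe set covers the disrupted part is not given in the sources used here.

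Over the whole family, most snoRNA genes read lower at day 7 than at day 0. From day 0 to day 7 the fitted difference was below 0 for 56 of the 73 genes in Pax7+/+ cells, with a median of -0.29 (log2) for H/ACA and -0.30 for C/D genes. In Pax7-/- cells it was below 0 for 61 of 73, with medians of -0.28 and -0.26. The median over all 22180 genes was near 0 in both (-0.00 and -0.02). On narrow arrays alone the medians were -0.13 and -0.16 in Pax7+/+ and -0.18 and -0.15 in Pax7-/- cells, and on wide arrays alone -0.47 and -0.51, and -0.50 and -0.41. Without the array set block the Pax7+/+ median over the 73 genes was 0.17, with 47 above 0; the day 0 group holds 1 wide array and the day 7 group 2. These medians rest on genes that share arrays and hosts, and in bulk samples fewer cells of a type and less RNA per cell cannot be told apart.

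From day 7 to day 21 the family medians went apart between the genotypes, a difference that was not tested. In Pax7+/+ cells 52 of 73 genes were below 0 (medians -0.13 for H/ACA and -0.25 for C/D), while in Pax7-/- cells 32 were below 0 (medians 0.15 and 0.00). At day 21 the Pax7-/- minus Pax7+/+ difference was then above 0 for 59 of 73 genes, with medians of 0.23 and 0.17 against -0.01 for all genes. That difference uses the same Pax7+/+ day 21 arrays as the step before it, so the figures are not separate observations. The shift was mostly on the wide arrays: the day 21 genotype medians were 0.12 (H/ACA) and 0.04 (C/D) on narrow arrays and 0.55 for each class on wide arrays. The Pax7+/+ group holds 1 wide array at day 21, replicate 2.

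**Figure D1:**
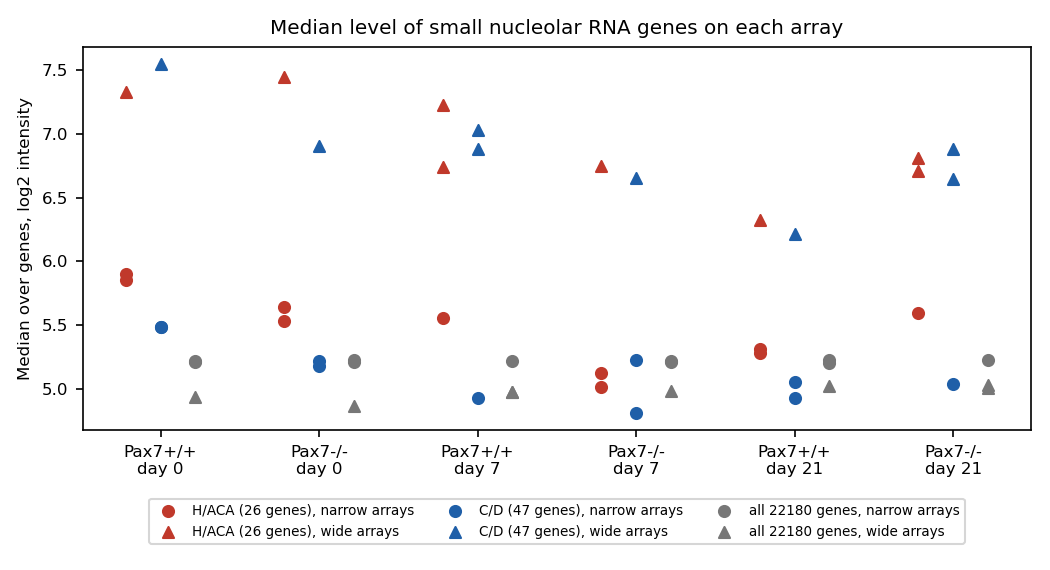
Median log2 intensity of the 26 H/ACA genes (red), the 47 C/D genes (blue) and all 22180 genes (grey) on each array, by genotype and day, with circles for narrow and triangles for wide arrays. Within each set the highest snoRNA medians are on day 0 arrays, the all-gene median spans 5.20 to 5.23 on narrow and 4.87 to 5.03 on wide arrays, and every wide array reads both classes above every narrow one.

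The medians of the 2 classes lay within 0.63 (log2) of each other on every array, and the difference was not tested. The H/ACA median minus the C/D median, taken on each array, lay between -0.11 and 0.63 on the narrow arrays (median 0.36, above 0 on 9 of 10) and between -0.29 and 0.54 on the wide arrays (median 0.08, above 0 on 5 of 8). By group it was 0.19 ± 0.35 (SD, n = 3) in Pax7+/+ and 0.44 ± 0.11 in Pax7-/- cells at day 0. At day 7 it was 0.22 ± 0.47 and 0.06 ± 0.16, and at day 21 it was 0.24 ± 0.12 and 0.18 ± 0.33. These group values mix both sets. Within sets at day 21 it was 0.25 and 0.36 (narrow) and 0.11 (wide) in Pax7+/+ and 0.55 (narrow), -0.08 and 0.06 (wide) in Pax7-/- cells. The genotypes were thus apart in opposite directions on the 2 sets. At day 0 they overlapped on narrow arrays and at day 7 on wide arrays. Probe sets differ in how strongly they bind, so the sign of this difference is no measure of which class is more abundant.

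Signals spread widely within each class, from 4.02 to 9.83 (log2 mean over 18 arrays, median 5.99) for H/ACA and from 3.33 to 9.05 (median 5.93) for C/D genes. Of the 73, 51 were at or above the median gene mean of 5.21, 20 H/ACA and 31 C/D. The brightest H/ACA probe sets were those of Snora33, Snora21, Snora68, Snora44 and Snora73b, and the dimmest those of Snora19, Snora20, Snora2b, Snora30 and Snora41. The brightest C/D probe sets were those of Snord49b, Snord82, Snord35a, Snord23 and Snord104, and the dimmest those of Snord61, Snord90, Snord72, Snord1b and Snord92. These means mix both array sets: Snord23 read 9.53 to 10.17 on narrow arrays and 6.33 to 6.72 on wide ones. Brightness ranks probe sets and not RNA amounts. Snora33 shows this: its 2 probe sets averaged 9.83 and 4.97. Gene length, 56 to 205 bases for H/ACA and 48 to 221 for C/D, went with signal only loosely (Pearson's r over genes 0.28 and 0.22, probe sets sharing the same arrays). The probe sets of Snora21 and Snora28 each hold the same 18 values as another probe set with no symbol, and the 2 probe sets of Snora19 are identical.

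A gene was called where limma's moderated test gave a Benjamini-Hochberg adjusted p under 0.05 over all 22180 genes. Over 8 comparisons 19 of the 73 genes were called at least once, 7 H/ACA and 12 C/D, and 54 never were. That is 26.03% of the 73, against 14.3% of all genes. All 19 were among the 51 snoRNA genes at or above the median level. The share to set beside 19 of 51 is the 26.3% of all genes at that level. Every call needed the array set as a block: without it no snoRNA gene passed in any of the 8 (0 to 3 of 73 at an unadjusted p under 0.05, limma). Without it at most 0.0676% of all genes passed in any comparison.

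At day 0, in undifferentiated cells, the loss of Pax7 went with 1 higher and 4 lower snoRNA genes among the 73. The background over all genes was 0.388% higher and 0.893% lower. Among genes at or above the median level, where all of these lie, 0.739% were higher and 1.77% lower. At an unadjusted p under 0.05 (limma) 14 of 73 (19.2%) passed in either direction, against 11.3% of all genes. Snord13, the U13 snoRNA needed for acetylation of the small-subunit ribosomal RNA, was the gene called higher. It read 5.68 and 6.48 (log2, narrow arrays) and 8.07 (wide) in Pax7+/+ cells, against 9.29 and 9.19 (narrow) and 9.79 (wide) in Pax7-/- cells. Every Pax7-/- array was above every Pax7+/+ array. The difference was 2.68 ± 0.47 (SE, log2), a 6.40-fold higher signal, with a limma adjusted p of 0.00921. It was 3.16 on narrow and 1.72 on wide arrays, and the adjusted p was 0.0596 without Pax7+/+ replicate 1 and 0.0523 without Pax7-/- replicate 1.

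The Snord13 difference was not called at day 7 and was called again at day 21. At day 7 Pax7+/+ cells read 5.81 (narrow), 8.13 and 8.62 (wide), and Pax7-/- cells 7.01 and 8.19 (narrow) and 9.22 (wide). The Pax7-/- arrays were the higher in each set, with a difference of 1.07 and an adjusted p of 0.468 (limma). At day 21 Pax7+/+ cells read 5.48 and 6.07 (narrow) and 5.57 (wide), and Pax7-/- cells 7.14 (narrow), 9.20 and 8.33 (wide), again with no overlap. The difference was 2.06 ± 0.48, with an adjusted p of 0.02 (limma), and it was 1.36 on narrow and 3.20 on wide arrays. The Pax7+/+ wide array of day 21, replicate 2, was as low as the narrow ones, although wide arrays read Snord13 above narrow ones in the other 5 groups. Without that array the adjusted p was 0.145, and without Pax7-/- replicate 2 it was 0.0813. The Snord13 gene (chr8:31149861-31149958, GRCm38.p6) lies in no annotated host.

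**Figure D2:**
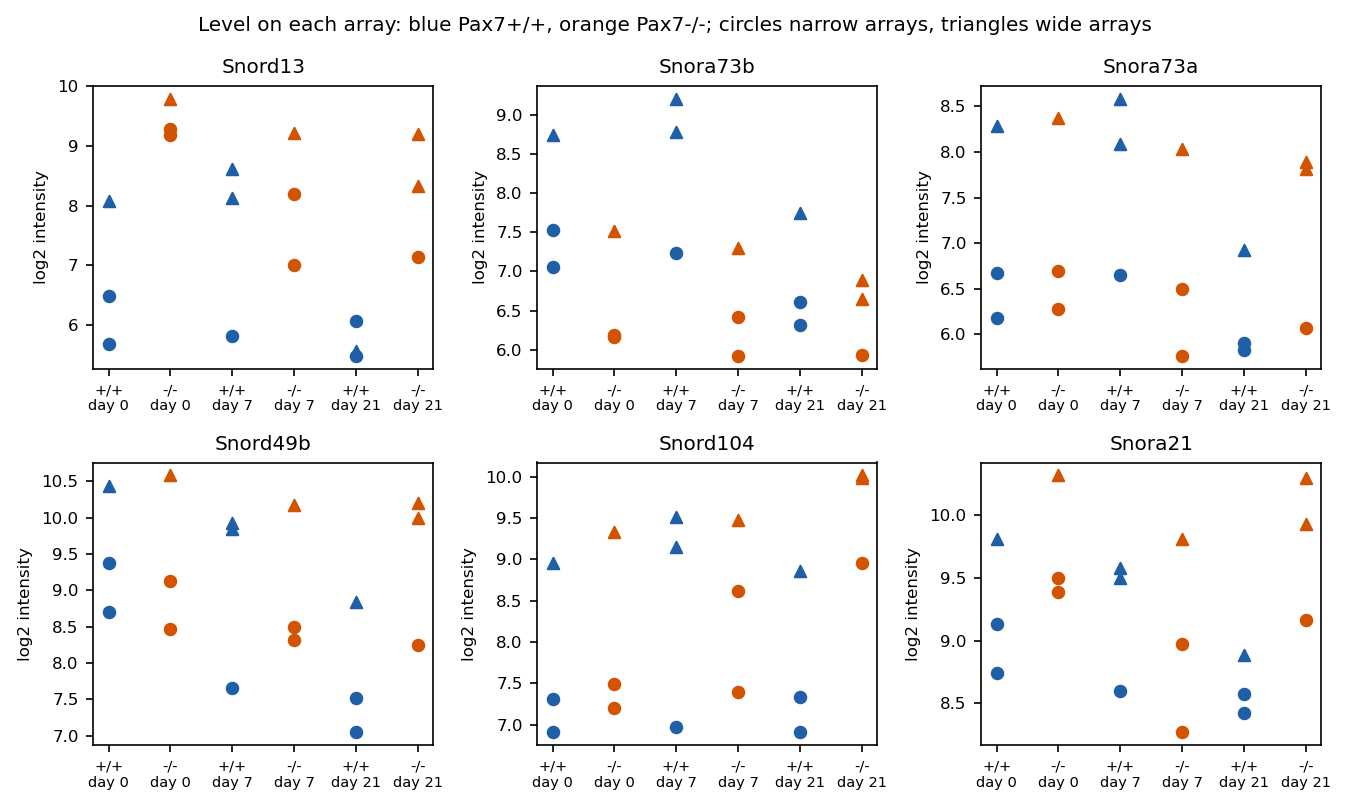
Log2 intensity of 6 snoRNA genes on each array, Pax7+/+ in blue and Pax7-/- in orange, with circles for narrow and triangles for wide arrays. Snord13 is higher in Pax7-/- cells within each array set at every day, Snora73b is lower within each set at every day while Snora73a is not, and Snord49b, Snord104 and Snora21 separate by genotype at day 21.

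Snora73b was the single snoRNA gene called between the genotypes at all 3 days, lower in Pax7-/- cells each time. It is a copy of U17, an H/ACA snoRNA that acts in the cleavage of the ribosomal RNA precursor on the way to the small subunit. At day 0 Pax7+/+ cells read 7.53 and 7.06 (narrow) and 8.75 (wide), and Pax7-/- cells 6.19 and 6.16 (narrow) and 7.52 (wide). At day 7 the values were 7.24 (narrow), 8.78 and 9.21 (wide) against 5.92 and 6.42 (narrow) and 7.30 (wide). At day 21 they were 6.60 and 6.32 (narrow) and 7.75 (wide) against 5.93 (narrow), 6.89 and 6.65 (wide). Within each array set the genotypes did not overlap at any day, though each set holds only 1 or 2 arrays of a genotype. At day 0 the wide set holds 1 of each, where no overlap was possible. The differences were -1.16 ± 0.19 (SE, log2; 2.23-fold lower), -1.43 ± 0.19 (2.69-fold lower) and -0.83 ± 0.19 (1.78-fold lower), with limma adjusted p-values of 0.0057, 0.0065 and 0.0199.

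At day 7 Snora73b was the only snoRNA gene called, 1 of 73 lower where 0.307% of all genes were, and none was called higher where 0.32% were. Among genes at or above the median level 0.559% were lower and 0.631% higher. At an unadjusted p under 0.05 (limma) there were 7 of 73 in either direction (9.59%), near the 9.96% of all genes. The day 0 and day 7 calls held without any 1 array of the groups compared. The day 21 call was lost without Pax7+/+ replicate 1 (adjusted p 0.0685) or 2 (0.0623), or without Pax7-/- replicate 2 (0.0611) or 3 (0.0891).

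Snora73a, the other U17 copy, sits beside Snora73b in the same host gene, Snhg3, and did not follow it. Snora73a lies at chr4:132352775-132352979 and Snora73b at chr4:132352322-132352526 (GRCm38.p6). Its genotype differences were 0.07, -0.44 and 0.47 (log2) at day 0, 7 and 21, with limma adjusted p-values of 0.942, 0.547 and 0.283. At day 0 Snora73a read 6.67 and 6.18 (narrow) and 8.29 (wide) in Pax7+/+ cells and 6.69 and 6.27 (narrow) and 8.37 (wide) in Pax7-/- cells, nearly the same. Taken on each array, Snora73b minus Snora73a was 0.41 to 0.88 (median 0.70) on the 9 Pax7+/+ arrays and -1.16 to 0.16 (median -0.50) on the 9 Pax7-/- arrays. The ranges do not overlap, whichever set an array belongs to. This contrast between the copies was chosen after the values were seen and has no test. Near-identical copies can share probes, so how the signal divides between the 2 genes is uncertain.

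The host transcript Snhg3 differed by -0.10, -0.39 and 0.36 between genotypes at the 3 days and was not called. The stretch around its start, which serves both U17 copies, is shown with that of 2410006H16Rik, a non-coding host of Snord49a, Snord49b and Snord65, because these 2 hosts carry Snora73b and Snord49b, whose genotype calls at day 0 and 7 and at day 21 held without any 1 array (RefSeq, GRCm38.p6, each 250 bases before to 50 after the start, 5′ to 3′ on the host's strand). Capitals mark CCGGAAGT on either strand, the core of an ETS-type motif.
Snhg3, chr4:132353637-132353936, minus strand: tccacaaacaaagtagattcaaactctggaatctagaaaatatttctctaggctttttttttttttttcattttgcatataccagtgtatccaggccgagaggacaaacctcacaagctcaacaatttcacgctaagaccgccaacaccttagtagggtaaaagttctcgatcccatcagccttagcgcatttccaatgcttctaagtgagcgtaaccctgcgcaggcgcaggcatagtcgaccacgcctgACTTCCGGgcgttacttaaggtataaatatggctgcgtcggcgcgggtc
2410006H16Rik, chr11:62602627-62602926, plus strand: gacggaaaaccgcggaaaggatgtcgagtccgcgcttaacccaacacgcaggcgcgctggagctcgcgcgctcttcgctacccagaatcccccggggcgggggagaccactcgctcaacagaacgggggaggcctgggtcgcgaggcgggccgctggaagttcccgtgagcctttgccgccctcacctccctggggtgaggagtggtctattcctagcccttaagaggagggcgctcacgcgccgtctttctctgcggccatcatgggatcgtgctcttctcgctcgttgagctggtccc
CCGGAAGT was found on either strand in the promoters of 5 of 35 host genes with an entry (14.3%) and in 4.35% of all 26742 promoters of this length. The palindrome CACGTG was found in 5 of 35 (14.3%) and in 8.11%. A match describes letters only.

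A further 3 snoRNA genes were lower in Pax7-/- cells at day 0. Snord47 read 5.74 and 5.98 (narrow) and 8.59 (wide) in Pax7+/+ and 4.59 and 4.82 (narrow) and 7.95 (wide) in Pax7-/- cells, a difference of -0.98 ± 0.21 (adjusted p 0.03). Snord73b differed by -0.98 ± 0.23 (adjusted p 0.0457) and Snora28 by -0.95 ± 0.18 (adjusted p 0.0173, limma for all). On the narrow arrays, 2 against 2, the genotypes did not overlap for any of these genes. They were called on these same arrays, so this is no further support, and the share of all genes without overlap was not taken. On the wide arrays, with 1 array of each genotype, no overlap was possible. The difference was larger on the narrow arrays (-1.15, -1.22 and -1.19) than on the wide ones (-0.64, -0.52 and -0.46). These calls were less firm than that of Snora73b. Snora28 lost its call without Pax7+/+ replicate 1 (adjusted p 0.0921) or 2 (0.0779) or Pax7-/- replicate 1 (0.0818), and Snord47 and Snord73b each kept theirs in 1 of the 6 fits that leave out an array, with adjusted p-values up to 0.118 and 0.167. Snord118, the U8 snoRNA of large-subunit processing, differed by 0.61 (adjusted p 0.22) at day 0 and was called in no comparison. Among the cell type markers 1 was called at day 0, the endoderm gene Gata6, higher by 1.26 in Pax7-/- cells. The endoderm list averaged 5.83 to 5.92 (narrow) and 5.52 (wide) in Pax7+/+ against 6.14 to 6.21 (narrow) and 6.54 (wide) in Pax7-/- cells. The mesenchyme list went the other way, with 6.335 to 6.37 (narrow) and 7.40 (wide) against 6.09 to 6.15 (narrow) and 6.36 (wide). Median fitted differences at day 0 were 0.39 for the endoderm list, -0.55 for mesenchyme, 0.35 for stem cell, 0.14 for neural, 0.04 for muscle and -0.10 for blood markers. The part of these cell types in the snoRNA differences was not tested.

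At day 21, in the outgrowths, 8 snoRNA genes were higher and 1 lower in Pax7-/- cells, where 3.82% of all genes were higher and 1.07% lower. Among the 11090 genes at or above the median level, from which all 9 come, 7.35% were higher and 1.97% lower. Beside Snord13 the higher genes were the C/D snoRNAs Snord104, Snord49b, Snord49a, Snord16a and Snord53 and the H/ACA snoRNAs Snora21 and Snora23. The lower gene was Snora73b. Snord49b, a methylation guide, read 7.05 and 7.51 (narrow) and 8.84 (wide) in Pax7+/+ cells and 8.25 (narrow), 10.20 and 9.998 (wide) in Pax7-/- cells. The genotypes were apart within each set, where 1 array is compared with 2. The difference was 1.09 ± 0.21 (SE, log2; 2.13-fold higher; limma adjusted p 0.00614), and the call held without any 1 array.

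Snord104 read 6.91 and 7.34 (narrow) and 8.86 (wide) in Pax7+/+ cells and 8.96 (narrow), 9.99 and 10.02 (wide) in Pax7-/- cells at day 21. Here even the narrow Pax7-/- array stood above the wide Pax7+/+ one. The difference was 1.37 ± 0.28 (2.59-fold higher; limma adjusted p 0.00982), and without Pax7-/- replicate 1 the adjusted p was 0.0693. Snora21, which lies within the ribosomal protein gene Rpl23 (chr11:97781639-97781766), read 8.42 and 8.58 (narrow) and 8.88 (wide) against 9.16 (narrow), 10.29 and 9.93 (wide). All Pax7-/- arrays were above all Pax7+/+ arrays. The difference was 0.88 ± 0.19 (adjusted p 0.0108), and the call was lost without Pax7+/+ replicate 2 (0.0859) or Pax7-/- replicate 2 (0.0504).

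The other 4 genes called higher at day 21 differed by 0.59 to 0.84 (log2). Snora23 was higher by 0.84 ± 0.22 and Snord49a by 0.81 ± 0.21, with limma adjusted p-values of 0.0413 and 0.0359. Snord16a was higher by 0.59 ± 0.15 (adjusted p 0.0353) and Snord53 by 0.59 ± 0.14 (adjusted p 0.0226). Within each array set the genotypes did not overlap for any of the 4. Each set compares 1 array with 2 and the genes were called on these same arrays, so this is no further support. The share of all genes without overlap was not taken. These calls leaned on single arrays: Snora23 and Snord16a kept theirs in 1 of 6 fits that leave out an array, and Snord49a and Snord53 in 2 of 6. Without Pax7+/+ replicate 2, the lone wide array of its group, the adjusted p-values of Snord49a, Snord53 and Snord16a were 0.244, 0.115 and 0.0787. Without Pax7-/- replicate 2 that of Snora23 was 0.148.

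Markers of several cell types moved in the same comparison. Of the 5 neural markers Sox1, Tubb3 and Stmn2 were called higher in Pax7-/- cells at day 21. Of all genes 3.82% were, and 7.35% of those at or above the median level. The mean over the neural list was 5.74 to 5.76 (narrow) and 6.67 (wide) in Pax7+/+ against 6.35 (narrow) and 7.65 to 7.76 (wide) in Pax7-/- cells. Stmn2, part of that mean, read highest at day 0 within each set and was called lower from day 0 to day 7 in both genotypes. Of the 6 stem cell markers Nanog was higher and Klf4 lower, of the 5 endoderm markers Dab2 was lower, and of the mesenchyme, muscle and blood markers none was called. On the wide arrays, where the snoRNA shift mostly lay, the stem cell list averaged 5.89 in Pax7+/+ against 6.81 in Pax7-/- cells, the endoderm list 9.24 against 7.94 to 8.14 and the mesenchyme list 8.50 against 6.80 to 7.48. On the narrow arrays these lists read 5.82 to 5.92 against 5.58, 7.68 to 7.77 against 6.78 and 6.53 to 7.09 against 6.19. The Pax7+/+ value on wide arrays comes from replicate 2 alone. The part of these cell types in the snoRNA differences was not tested.

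**Figure D3:**
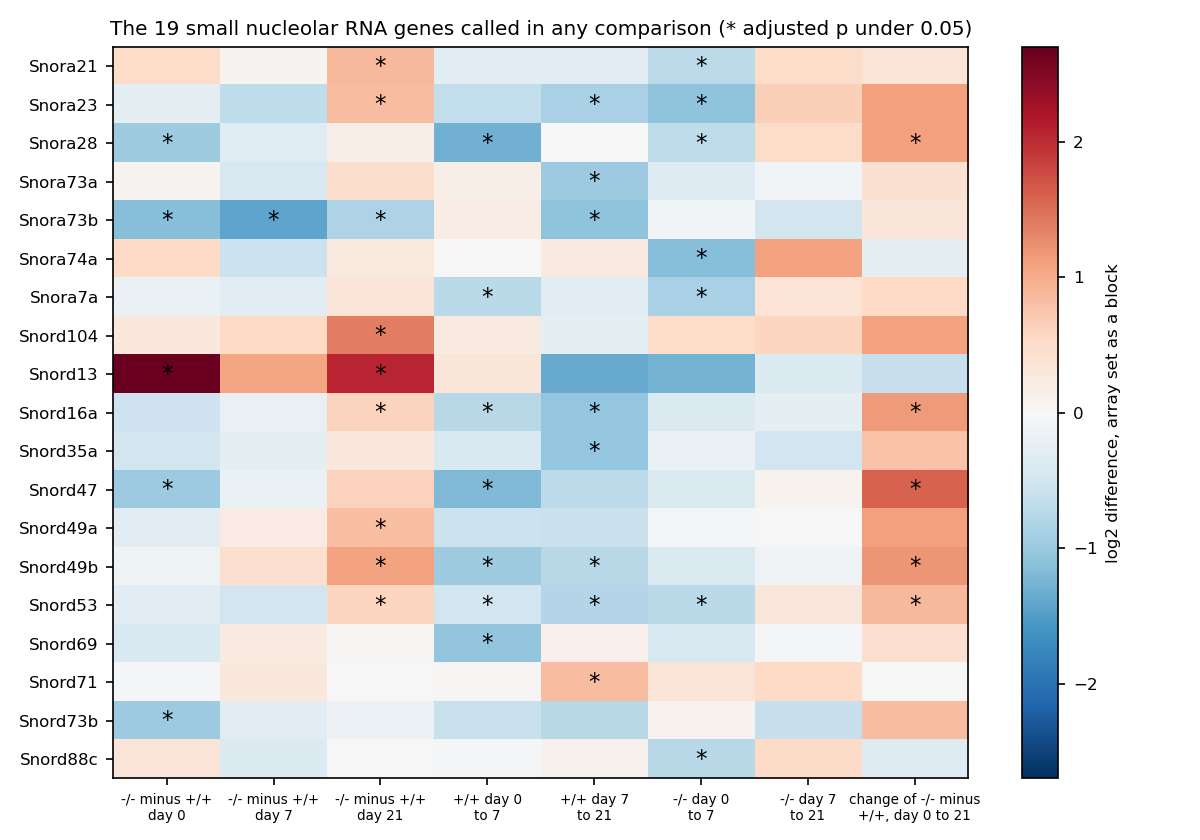
Fitted log2 differences of the 19 snoRNA genes called in any of the 8 comparisons (rows, H/ACA then C/D), with red for higher, blue for lower and an asterisk for a limma adjusted p under 0.05. The day 21 genotype column holds 8 higher calls and 1 lower call, that of Snora73b. The steps from day 0 to day 7 hold lower calls only, and the day 7 to day 21 step in Pax7-/- cells holds no call. The rows were chosen by these same calls, so their colours are no further support.

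In the step from day 0 to day 7, 7 snoRNA genes were called lower and none higher in each genotype. At an unadjusted p under 0.05 (limma) 21 (28.8%) and 17 (23.3%) of the 73 passed in either direction, against 17.7% and 16.5% of all genes. In Pax7+/+ cells 3.14% of all genes were lower and 2.54% higher, and in Pax7-/- cells 1.82% lower and 2.05% higher. Among genes at or above the median level 5.85% and 3.48% were lower. Snora28, Snora7a and Snord53 were called lower in both genotypes, 3 of the 7 in each. Snora28, within the translation factor gene Eif5, read 7.04 and 7.04 (narrow) and 9.24 (wide) at day 0 and 5.79 (narrow), 8.13 and 8.18 (wide) at day 7 in Pax7+/+ cells. It fell within each set, by -1.30 ± 0.19 in the fit (2.47-fold lower; limma adjusted p 0.000472). In Pax7-/- cells, where it started lower, the step was -0.68 ± 0.18 (adjusted p 0.0484).

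The remaining calls of this step differed in name between the genotypes, which is no test of a difference. In Pax7+/+ cells they were Snord47 (-1.19), Snord69 (-1.07), Snord49b (-0.95) and Snord16a (-0.75, all log2). In Pax7-/- cells they were Snora74a (-1.15), Snora23 (-1.08), Snord88c (-0.75) and Snora21 (-0.71). Of the 5 H/ACA calls in Pax7-/- cells, those of Snora74a, Snora7a, Snora28 and Snora21 were lost in 4 of the 6 fits that leave out an array (adjusted p up to 0.118, 0.146, 0.234 and 0.167), and that of Snora23 without day 7 replicate 3 (0.0502). The C/D call of Snord88c was lost in 5 (up to 0.0696). In Pax7+/+ cells Snora28, Snord16a, Snord47 and Snord69 kept their calls in all 6, Snord49b lost its call without day 7 replicate 1 (0.0849), and Snora7a and Snord53 lost theirs in 5 (up to 0.245 and 0.22). Snord53, called in both, differed by -0.51 ± 0.14 in Pax7+/+ and -0.72 ± 0.14 in Pax7-/- cells. It read 6.78 and 6.98 (narrow) and 8.82 (wide) at day 0 and 6.39 (narrow), 8.44 and 8.07 (wide) at day 7 in Pax7+/+ cells. In Pax7-/- cells it went from 6.70 and 6.58 (narrow) and 8.41 (wide) to 5.68 and 5.92 (narrow) and 7.93 (wide). The fall is seen in each set of each genotype.

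From day 7 to day 21 in Pax7+/+ cells 7 snoRNA genes were called lower and 1 higher, where 4.48% of all genes were lower and 1.37% higher. Among genes at or above the median level the shares were 8.54% and 2.36%. Both U17 copies fell here, Snora73b by -1.09 ± 0.19 (limma adjusted p 0.00338) and Snora73a by -0.99 ± 0.22 (adjusted p 0.0136). Snora73a went from 6.65 (narrow), 8.08 and 8.58 (wide) to 5.83 and 5.90 (narrow) and 6.93 (wide), and Snhg3, their host, differed by -0.93 (adjusted p 0.0526). The C/D snoRNAs Snord16a (-1.05 ± 0.15), Snord35a (-1.05 ± 0.24), Snord53 (-0.80 ± 0.14) and Snord49b (-0.75 ± 0.21) fell too, as did the H/ACA snoRNA Snora23 (-0.88 ± 0.22). Snord16a, within the ribosomal protein gene Rpl4, was called lower in both Pax7+/+ steps, as were Snord49b and Snord53. It read 6.34 and 6.64 (narrow) and 9.12 (wide) at day 0, 5.66 (narrow), 8.67 and 8.64 (wide) at day 7, and 4.28 and 4.75 (narrow) and 7.69 (wide) at day 21.

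Snord71 was the gene called higher in this step, from 4.81 (narrow), 7.83 and 8.25 (wide) to 6.55 and 6.04 (narrow) and 8.19 (wide). It was higher on the narrow arrays (1.48), while on the wide ones the days overlap (0.16). Its call (adjusted p 0.0494) was lost without day 7 replicate 1 (0.247) or 2 (0.13) or day 21 replicate 1 (0.153) or 3 (0.0943). Snora73b, Snord16a and Snord53 kept their calls without any 1 array. Snora73a lost its call without day 7 replicate 3 (0.0687) or day 21 replicate 2 (0.121). Snord35a lost its call in 3 of 6 such fits, Snord49b in 4 and Snora23 in 5, with adjusted p-values up to 0.0987, 0.216 and 0.0939. In the same step the mesenchyme markers Col1a1, Col1a2 and Postn were called higher, 3 of 5, and their list went from 6.02 (narrow) and 6.02 to 6.11 (wide) to 6.53 to 7.09 (narrow) and 8.50 (wide, replicate 2). Of the stem cell markers Nanog and Tdgf1 were called lower and Klf4 higher. The part of these markers in the snoRNA step was not tested. Over the family this step was nearly flat on the narrow arrays (medians -0.00 for H/ACA and -0.01 for C/D) and downward on the wide ones (-0.46 and -0.61).

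In Pax7-/- cells no snoRNA gene was called from day 7 to day 21, where 0.455% of all genes were higher and 0.379% lower. At an unadjusted p under 0.05 (limma) there were 12 of 73 (16.4%), against 12.1% of all genes. Snord49b read 8.32 and 8.49 (narrow) and 10.17 (wide) at day 7 against 8.25 (narrow), 10.20 and 9.998 (wide) at day 21, which overlap. For the 7 genes called lower in Pax7+/+ cells, the Pax7-/- steps were -0.51 for Snord35a, -0.49 for Snora73b, -0.27 for Snord16a, -0.10 for Snord49b, -0.08 for Snora73a, 0.30 for Snord53 and 0.64 for Snora23. The difference between the genotypes in this step was not tested.

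**Figure D4:**
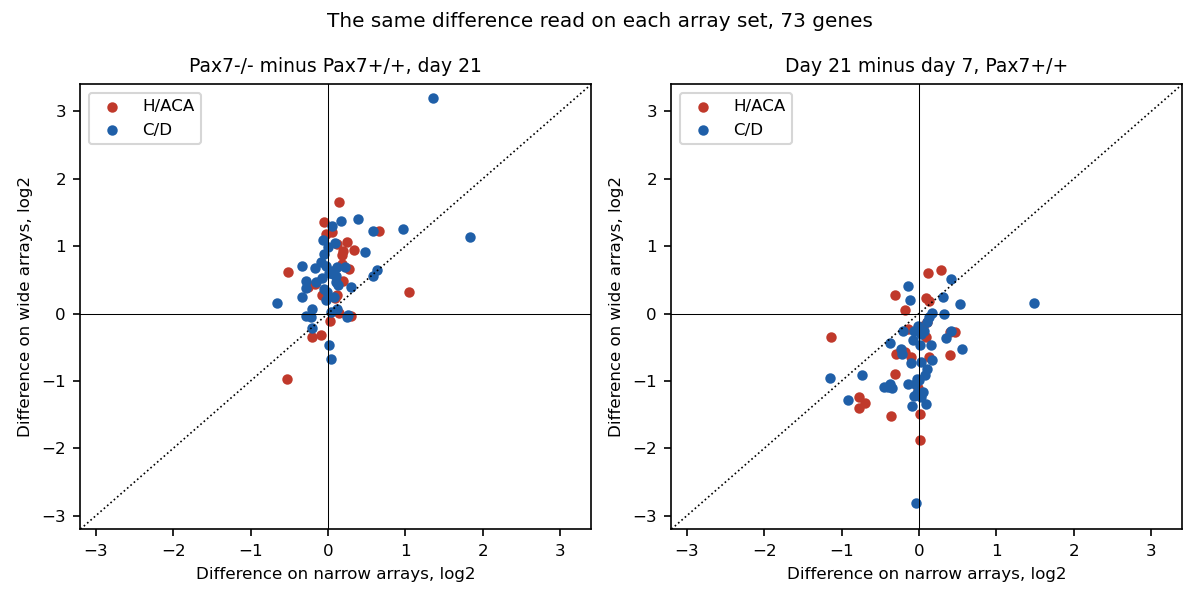
The difference of each of the 73 snoRNA genes on narrow arrays (horizontal) and on wide arrays (vertical), in log2 units, for Pax7-/- minus Pax7+/+ at day 21 and for day 21 minus day 7 in Pax7+/+ cells, with H/ACA in red, C/D in blue and the line of equality dotted. The points spread further along the wide axis, above 0 in the first panel and below 0 in the second, and both panels use the same single wide Pax7+/+ array of day 21.

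A test of the change in the genotype difference from day 0 to day 21 called 5 snoRNA genes higher and none lower, against 1.5% and 0.356% of all genes. Among genes at or above the median level the shares were 2.98% and 0.631%. At an unadjusted p under 0.05 (limma) 13 of 73 (17.8%) passed, against 13.6% of all genes. The 5 called genes were Snord47 (1.59 ± 0.30), Snord49b (1.20 ± 0.29), Snord16a (1.15 ± 0.21), Snora28 (1.11 ± 0.26) and Snord53 (0.88 ± 0.20, all log2, SE). Their limma adjusted p-values were 0.0125, 0.0499, 0.0113, 0.0413 and 0.0315. Snord47 was lower in Pax7-/- cells at day 0. At day 21 it read 4.08 and 4.03 (narrow) and 6.53 (wide) in Pax7+/+ and 4.53 (narrow), 7.90 and 6.97 (wide) in Pax7-/- cells, higher within each set. Snord49b hardly differed at day 0, with 8.70 and 9.37 (narrow) and 10.43 (wide) against 8.47 and 9.13 (narrow) and 10.58 (wide), and was higher at day 21. Snord47 and Snord16a kept their calls in all 12 fits that leave out an array, Snora28 in 4, and Snord49b and Snord53 in 3.

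Of the 73 genes, 55 lie within exactly 1 measured gene, 13 in non-coding and 42 in coding hosts, and there are 41 such hosts. Strand is not in the position table, so a spanning gene is the likely host and not a proven one. At day 21 the member and its host differed in the same direction for 40 of 55, with hosts at a median of 0.32 and their snoRNA genes at 0.17 (log2). Size did not follow: Pearson's r over the 55 was 0.10, with hosts shared by several genes. Of the 41 hosts 15 were called higher at day 21, against 3.82% of all genes and 7.35% of those at or above the median level. The hosts of 20 snoRNA genes were called higher at day 21, and of those 20 genes 2 were called, Snora23 with Ipo7 (host 1.20) and Snord53 with Wdr43 (host 0.75). Of the 6 called genes with a host, the other 4, Snord49a, Snord49b, Snord16a and Snora73b, had a host that was not called. In the day 0 to day 7 step of Pax7+/+ cells 46 of 55 shared their host's direction (r 0.27). In the day 7 to day 21 step 41 did (r 0.30). In that step 17 of the 41 hosts were called lower and none higher, where 4.48% of all genes were lower. For the genotype difference at day 0 and day 7 the direction was shared by 36 and 28 (r 0.01 and 0.31). In the Pax7-/- steps it was shared by 40 and 27 (r 0.18 and -0.01), and for the change from day 0 to day 21 by 42 (r 0.33). Where most members and most hosts moved the same way, shared direction follows in part from that alone.

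**Figure D5:**
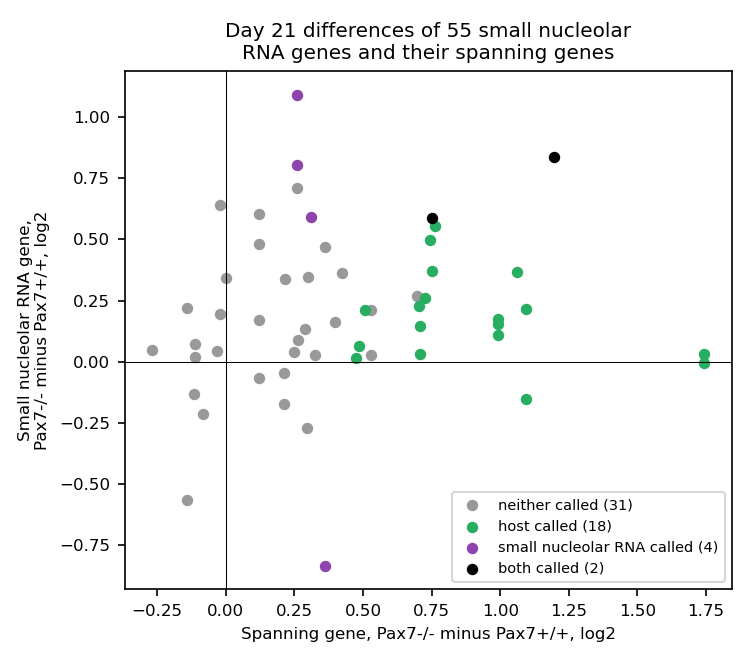
Day 21 difference (Pax7-/- minus Pax7+/+, log2) of 55 snoRNA genes against that of the gene that spans each, coloured by which of the pair had a limma adjusted p under 0.05. Of the 20 genes whose host was called, 2 were called themselves, and the 4 called without their host include Snora73b, the lowest point.

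Snord49b and its non-coding host 2410006H16Rik were called between genotypes on different days, and the difference between the 2 was not tested. The host was called higher in Pax7-/- cells at day 7 (0.83, adjusted p 0.028) and not at day 21 (0.26, adjusted p 0.448). Snord49b (chr11:62603086-62603148) was called at day 21 and not at day 7 (0.44, adjusted p 0.507, limma). Snord49a, in the same host, was also called at day 21 and not at day 7 (0.21), and Snord65 was called in no comparison. From day 7 to day 21 in Pax7-/- cells the host fell by -0.96 (adjusted p 0.00824), while Snord49b differed by -0.10.

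The protein partners of both classes were taken from lists of core and assembly factors. At day 21, 3.82% of all genes and 7.35% of those at or above the median level were called higher in Pax7-/- cells. In the day 7 to day 21 step of Pax7+/+ cells 4.48% and 8.54% were called lower. Of the 4 C/D core proteins 3 were measured, and at day 21 Nop56 (0.73) and Snu13 (0.75) were higher in Pax7-/- cells, with Nop58 at 0.53 (limma adjusted p 0.0582). In the day 7 to day 21 step of Pax7+/+ cells all 3 fell (Nop56 -0.73, Nop58 -0.76, Snu13 -0.81). Of the 4 H/ACA core proteins Dkc1, the pseudouridine synthase, was higher at day 21 by 1.12 (adjusted p 0.00302) and Nhp2 by 0.89 (adjusted p 0.0102), while Gar1 (0.14) and Nop10 (0.42) were not called. At day 21 Dkc1 read 5.55 and 5.13 (narrow) and 6.98 (wide) in Pax7+/+ and 6.35 (narrow), 8.23 and 8.44 (wide) in Pax7-/- cells. The genotypes were apart within each set for Dkc1, again 1 array against 2. Dkc1 fell from day 0 to day 7 in Pax7+/+ (-1.16) and in Pax7-/- cells (-0.82), and again from day 7 to day 21 in Pax7+/+ cells (-0.91).

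Of 12 snoRNP assembly factors, Nolc1 (0.94), Ruvbl1 (0.62) and Ruvbl2 (0.54) were higher in Pax7-/- cells at day 21 and none was lower. Over all genes 3.82% were higher and 1.07% lower, and of those at or above the median level 7.35% and 1.97%. Nolc1, Nufip1, Ruvbl2 and Tcof1 fell from day 7 to day 21 in Pax7+/+ cells, where 4.48% of all genes were called lower. Of 10 processing factors Ncl, Npm1 and Utp4 were higher at day 21. No core protein or assembly factor was called between the genotypes at day 0 or day 7.

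Relatives of the snoRNAs outside the 73 genes were read at day 21 too, where 3.82% of all genes were higher and 1.07% lower. Among genes at or above the median level 7.35% were higher and 1.97% lower. Of 5 scaRNAs, which guide modification of spliceosomal RNAs in Cajal bodies, Scarna17 was called lower at day 21 and none higher. Of 7 other small RNAs 1 was called, Terc, the telomerase RNA, which carries an H/ACA domain. It read 10.90 and 10.63 (narrow) and 11.12 (wide) at day 0, 9.47 (narrow), 10.37 and 10.43 (wide) at day 7, and 7.34 and 7.10 (narrow) and 8.11 (wide) at day 21 in Pax7+/+ cells. Each step was called (-1.09 and -2.28). At day 21 Terc was higher in Pax7-/- cells, at 8.06 (narrow), 10.02 and 9.56 (wide), by 1.40 (adjusted p 0.00336, limma). Of 17 non-coding hosts Rian, Snhg14 and Snhg17 were higher and none lower at day 21.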

How the data were processed

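For each probe set the deposited table gives a log2 intensity, which the authors made from Affymetrix arrays with RMA and Partek, per the submitters' processing notes, which give no version or order. Whether all arrays were summarised together is not given in the sources used here. The arrays carry no count of reads, and their number limits the precision.

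A single gene symbol was attached to 23521 of the 41345 probe sets, several to 1814 and none to 16010. For each of 22180 genes the probe set of highest mean over 18 arrays was kept. Arrays with a standard deviation over probe sets above 1.6 were called wide, the others narrow. The fits used lmFit, contrasts.fit and eBayes of limma (version 3.58.1, under R 4.3.3), with 6 group means and the array set as a block, on all genes and all 18 arrays. A gene was called at a Benjamini-Hochberg adjusted p under 0.05 over all genes. The labels call the 3 samples of a group biological replicates, and the p-values measure only their spread. With 3 arrays against 3, an exact permutation test of a single value could not go below p 0.1. The fit was tested on simulated data. The plots were made in matplotlib 3.10.9 under Python 3.11.15.

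Genes were named by rule: up to 10 called each way in a comparison, the 5 highest and 5 lowest means in each class, Snord118, Snord13 and the Snora73 genes, and core proteins and assembly factors that passed (others up to 2 a list). Markers, hosts, Terc, scaRNAs and processing factors are named beside them. The members and lists were chosen with earlier results of these data known. Positions, host genes and promoters come from RefSeq, GRCm38.p6. Samples of 1 replicate number and day correlated in their deviations between -0.22 and 0.23, so the numbers were not used as pairs. The alternatives tried were no array set block, each array set alone, a replicate block, quantile normalization, a filter at the median level, eBayes with trend and robust settings, and leaving out each array.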

Additional observations from a re-analysis of the deposited data

Results flagged for a closer look

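The genotype difference (Pax7-/- minus Pax7+/+) changed between day 0 and day 21 for 5 snoRNA genes by limma's test of that change itself. The change was 1.59 (log2) for Snord47, 1.20 for Snord49b, 1.15 for Snord16a, 1.11 for Snora28 and 0.88 for Snord53. All 5 were above 0 on the narrow arrays and on the wide arrays, with changes of 1.63 and 1.55 for Snord47 and 1.49 and 0.43 for Snora28. They were called on these same arrays, so this is no further support. Of all 73 snoRNA genes 39 were above 0 on narrow and 63 on wide arrays, against 49.8% and 49.2% of all genes. Snora28 kept its call in 4 of the 12 fits that leave out an array, and Snord49b and Snord53 in 3.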

How the results depend on the processing

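Counts of called snoRNA genes depended on the array set. Without it as a block the count was 0 in all 8 comparisons, and 3 called differences changed sign, Snord16a and Snord53 from day 0 to day 7 in Pax7+/+ cells (0.29 and 0.11) and Snord71 from day 7 to day 21 (-0.036). On narrow arrays alone the counts were 0 for the genotype difference at day 7 (0.144% of all genes), 2 at day 21 (2.74%, near the 2.36% of all genes), 3 for day 7 to day 21 in Pax7+/+ cells (4.11% against 2.24%) and 1 in Pax7-/- cells (1.37% against 0.406%). On wide arrays alone they were 3 at day 7 (1.85% of all genes), 26 at day 21 (35.6% against 8.57%), 19 and 31 for the Pax7+/+ steps (26.03% and 42.5% against 13.6% and 14.3%), 16 and 1 for the Pax7-/- steps (21.9% and 1.37% against 14.5% and 3.67%) and 10 for the change from day 0 to day 21 (13.7% against 3.66%). Where a group holds 1 array of a set, that array is assumed to vary like the others. Quantile normalization gave 1 for the last Pax7-/- step and 3 for the change, and the filter at the median level gave 1 for that step.

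Leaving out 1 array gave 1 to 5 calls at day 0, 1 to 1 at day 7, 2 to 8 at day 21, 5 to 6 and 4 to 7 for the Pax7+/+ steps, 2 to 5 and 0 to 1 for the Pax7-/- steps and 2 to 6 for the change. At day 0 the count was 1 when Pax7+/+ or Pax7-/- replicate 1 was left out, 2 for Pax7+/+ replicate 2 and 3 for Pax7-/- replicate 3. At day 21 it was 3 for Pax7+/+ replicate 2, 4 for Pax7-/- replicate 1 and 2 for Pax7-/- replicate 2. From day 7 to day 21 in Pax7+/+ cells it was 4 for day 7 replicate 2 and 5 for day 7 replicate 3 and for day 21 replicates 1 and 2. From day 0 to day 7 in Pax7-/- cells it was 2 for day 0 replicate 2 and day 7 replicates 1 and 3, and 4 for day 7 replicate 2. For the change it was 2 for Pax7+/+ day 0 replicates 1 and 2, Pax7-/- day 0 replicate 1 and Pax7-/- day 21 replicates 1 and 2, and 3 for Pax7+/+ day 21 replicates 1 and 3 and Pax7-/- day 0 replicates 2 and 3. Of 42 calls 13 held in all such fits.

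With the replicate block the counts were 5, 1 and 9 for the genotype differences at day 0, 7 and 21, 5 and 8 for the Pax7+/+ steps, 6 and 0 for the Pax7-/- steps and 5 for the change, and 38 of 42 calls held. The numbers do not pair the samples.

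The class difference H/ACA minus C/D was 0.39 from means over members and 0.0075 with the filter at the median level for Pax7+/+ cells at day 21. For Pax7-/- cells at day 0 it was 0.31, 0.077 and, after quantile normalization, 0.55. Leaving out 1 array it ranged over 0.076 to 0.39, 0.023 to 0.48 and 0.18 to 0.30 in Pax7+/+ cells at day 0, 7 and 21, and over 0.39 to 0.50, -0.0036 to 0.15 and -0.0069 to 0.31 in Pax7-/- cells. No detection p was used, so dim probe sets may lie at background.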
